A study of Homo sapiens with 15 samples.

Results

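The collagen genes of the human genome and the accessible chromatin around them were examined in HPAF-II cells, a human pancreatic adenocarcinoma line. Peaks of all 15 libraries were merged into 222814 union regions, peaks that shared at least 1 bp being joined. A region was taken as a collagen region if it lay inside, or within 50 kb of either end of, a protein-coding gene whose symbol is COL, a number, A and a number. This rule gave 1016 regions around 44 of 19974 protein-coding genes, and it used position and symbol but no measured value.

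The assay was ATAC-seq, in which a transposase cuts accessible DNA, and the series asked how chromatin changes under WNT inhibition. Cells were treated with 1 µM Lgk974, which blocks porcupine, the enzyme that adds the lipid WNT ligands need for secretion, or with the solvent DMSO. There were 4 Lgk974 and 4 DMSO libraries at 24 h, and 3 Lgk974 and 4 DMSO libraries at 48 h. All 15 labels name HPAF-II and no genetic change; the growth protocol also describes KATO III cells. The labels do not state that replicates were separate cultures, so the p-values below measure the spread between libraries, which may be technical. Each library gave a list of 53610 to 127886 peaks; read counts were not used here, so depth is unknown and a region without a call may be open below that list's threshold, and fewer cells with open chromatin cannot be told apart from less open chromatin per cell.

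Collagens are secreted or membrane proteins whose 3 chains wind into a triple helix. Fibrillar collagens form the fibrils of connective tissue, network collagens form sheets such as the basement membrane, FACIT collagens coat fibrils, and transmembrane collagens anchor cells. Fibroblasts make most of the fibrillar collagen of the pancreatic tumour stroma, while epithelial cells lay down basement membrane and contribute the collagens that fix them to it.

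All epithelial markers had constant peaks, but so did most leukocyte markers, so these calls alone do not give the cell type. A peak within 1 kb of either gene end was present in 15 of 15 libraries for all 11 epithelial markers, among them EPCAM, CDH1 and KRT19. The share over all protein-coding genes was 54.3%. Of 13 fibroblast and mesenchymal markers 1, ACTA2, was called in all 15, and FAP, DCN, LUM, THY1 and POSTN in 0; between 1 and 6 of them were called in a Lgk974 library and between 4 and 7 in a DMSO library. None of 6 endothelial markers was called in every library. Among 6 leukocyte markers, CD3E, CD14, CD68 and SPI1 were called in all 15 and PTPRC in 2; whether those peaks belong to neighbouring genes was not tested. AXIN2, the WNT target used as a check of the treatment, was called in 0 of 7 libraries with Lgk974 and 7 of 8 with DMSO (exact p = 0.00204, Benjamini-Hochberg adjusted p = 0.543). By the overlap of their called regions with those of the other libraries, DMSO 24 h replicate 3, Lgk974 24 h replicate 3 and Lgk974 48 h replicate 3 stood apart (mean Jaccard index 0.376 to 0.513, against 0.583 to 0.656 in the other 12).

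Most collagen genes had no stable peak at their ends. A peak within 1 kb of either end was called in all 15 libraries for 8 of 44 collagen genes (18.2%), against 54.3% of all protein-coding genes, and in 0 libraries for 11 (25%), against 18.6%. The 8 genes were COL17A1, COL7A1, COL13A1, COL1A1, COL5A2, COL11A2, COL9A2 and COL9A3. In 13 or 14 libraries the ends of COL12A1, COL14A1, COL22A1, COL6A1 and COL18A1 were called. In 12 genes an end was called in only 1 or 2 libraries; of the 11 such genes with a single call, 8 were called in DMSO 24 h replicate 3 alone and 2 in Lgk974 48 h replicate 3 alone, both libraries that stood apart.

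**Figure D1:**
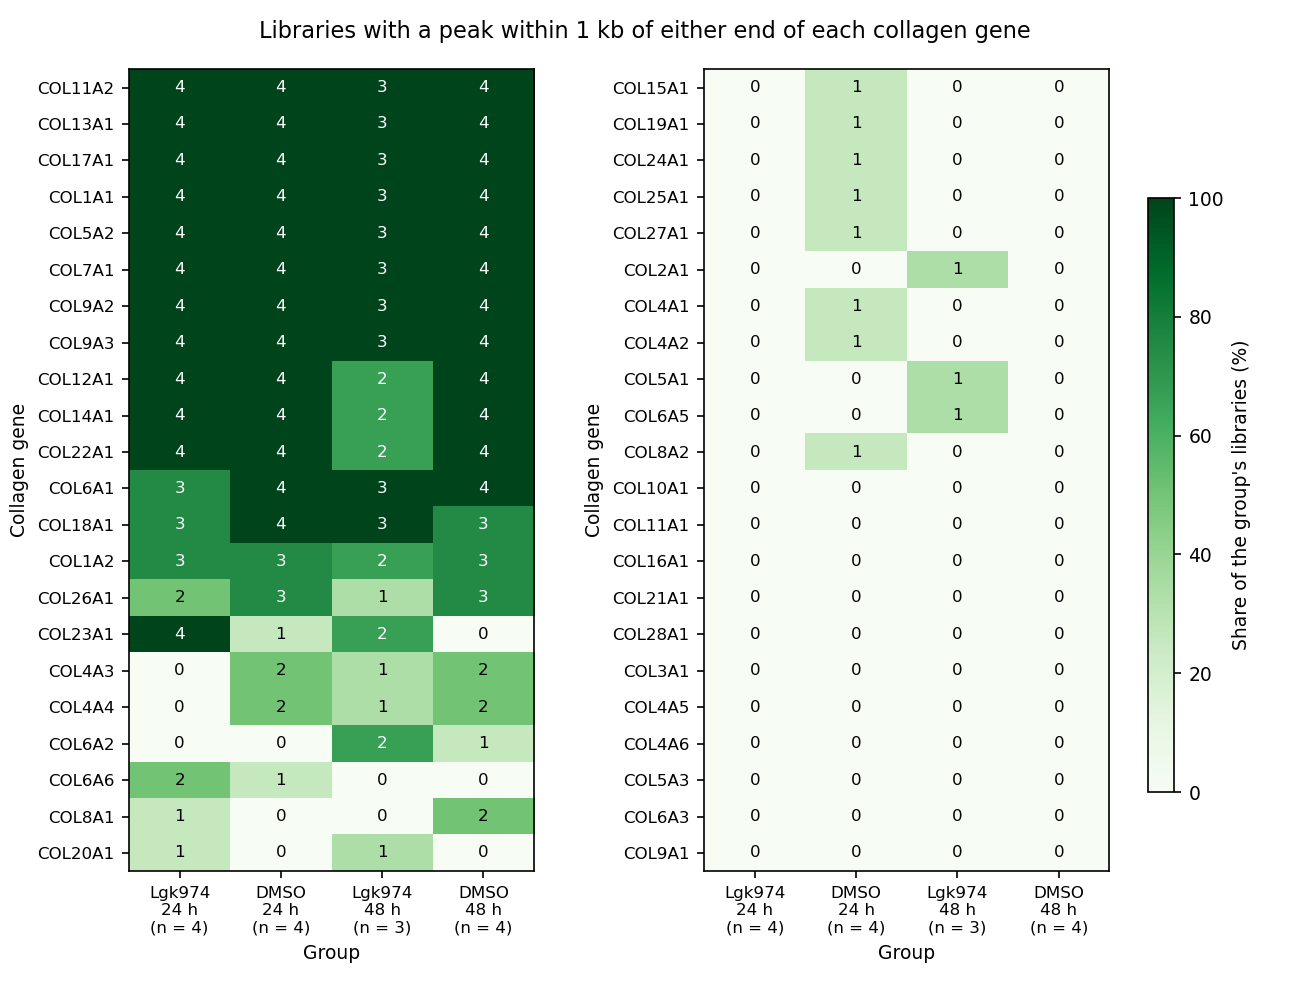
Number of libraries with a peak within 1 kb of either end of each of the 44 collagen genes, by group, with Lgk974 left of DMSO at each time; shade gives the share of the group's libraries in percent. The 8 genes at the top left were called in all 15 libraries, and the lower 11 genes of the right panel in none.

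The sequence at gene starts was set beside these calls for 4 genes, 2 whose start was called in every library and 2 whose start was rarely or never called. The windows hold 300 bases around the annotated start in RefSeq GRCh38.p14, 5′ to 3′ on the gene's strand. Capitals mark matches on either strand. In COL17A1 they mark the TATA motif (TATAAA) and the CCAAT motif, and in COL7A1 the TATA motif and the GC box (GGGCGG). In COL26A1 they mark the core of TCF/LEF sites (CTTTGA), through which WNT signalling acts, and in COL4A1 that core, the CCAAT motif and the GC box.
COL17A1: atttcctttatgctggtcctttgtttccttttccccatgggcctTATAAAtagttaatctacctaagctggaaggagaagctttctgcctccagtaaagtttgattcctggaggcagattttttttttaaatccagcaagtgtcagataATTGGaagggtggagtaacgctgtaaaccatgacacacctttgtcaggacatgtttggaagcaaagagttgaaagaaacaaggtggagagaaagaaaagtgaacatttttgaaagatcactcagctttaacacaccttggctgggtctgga
COL7A1: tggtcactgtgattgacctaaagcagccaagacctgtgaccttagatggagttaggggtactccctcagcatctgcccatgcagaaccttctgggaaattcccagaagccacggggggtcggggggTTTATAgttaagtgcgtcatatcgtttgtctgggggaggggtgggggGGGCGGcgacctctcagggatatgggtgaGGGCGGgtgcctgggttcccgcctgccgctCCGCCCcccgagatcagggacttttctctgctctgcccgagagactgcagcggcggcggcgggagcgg
COL26A1: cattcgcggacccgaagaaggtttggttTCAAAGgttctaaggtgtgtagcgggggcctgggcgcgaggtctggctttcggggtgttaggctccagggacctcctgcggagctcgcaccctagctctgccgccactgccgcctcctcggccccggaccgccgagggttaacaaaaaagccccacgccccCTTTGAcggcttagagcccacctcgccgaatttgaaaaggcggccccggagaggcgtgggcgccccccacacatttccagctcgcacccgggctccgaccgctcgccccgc
COL4A1: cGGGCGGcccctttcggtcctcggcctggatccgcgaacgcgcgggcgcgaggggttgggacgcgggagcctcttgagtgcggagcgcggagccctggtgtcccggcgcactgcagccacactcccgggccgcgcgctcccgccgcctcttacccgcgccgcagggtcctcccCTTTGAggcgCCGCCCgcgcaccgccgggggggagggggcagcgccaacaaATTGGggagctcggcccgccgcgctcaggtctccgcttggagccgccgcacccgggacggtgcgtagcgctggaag
They lie at chr10:104085831-104086130, minus strand (COL17A1); chr3:48595280-48595579, minus strand (COL7A1); chr7:101362625-101362924, plus strand (COL26A1); and chr13:110307108-110307407, minus strand (COL4A1). The called COL17A1 window had a GC content of 40.7% and an observed to expected CpG ratio of 0.0820, and the called COL7A1 window 62.3% and 0.602. The COL26A1 window, called in 1 Lgk974 and 1 DMSO library, had 66.7% and 0.876, and the COL4A1 window, with 0 calls, 76.7% and 1.02.

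Of the 44 collagen genes, 32 had such windows, 44 in all, of which some overlap. CTTTGA was found in 10 of the 44 windows and in 12.9% of all 35116 windows of the table; TATAAA in 8 and in 11.5%; CCAAT in 14 and in 34.6%; GGGCGG in 24 and in 45.0%; and TGANTCA, the AP-1 motif, in 1 and in 7.71%. In the 5 windows called in 13 to 15 libraries the median GC content was 62.3% and the median CpG ratio 0.602. In the 14 called in 1 to 12 libraries they were 70.5% and 0.741, and in the 25 called in none 59.0% and 0.491. The 5 were those of COL17A1, COL7A1, COL12A1, COL13A1 and an internal start of COL21A1. A match is a string of letters and says nothing of binding.

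COL17A1 encodes the transmembrane collagen of hemidesmosomes, and its start was called in 4 of 4 libraries with Lgk974 and 4 of 4 with DMSO at 24 h, and in 3 of 3 and 4 of 4 at 48 h. Within each list the peak stood at a median percentile of 55.6 in Lgk974 and 58.3 in DMSO libraries at 24 h, and 61.7 and 55.0 at 48 h, on the authors' −log10 q. COL7A1 encodes the chain of the anchoring fibrils beneath epithelia, and its start had the same calls at higher percentiles, with medians of 86.2 in Lgk974 and 81.0 in DMSO at 24 h, and 93.5 and 86.8 at 48 h. At 48 h the COL7A1 percentiles ran from 91.8 to 95.4 in Lgk974 and from 85.5 to 89.4 in DMSO, without overlap. At 24 h they ran from 72.4 to 90.9 in Lgk974 and from 77.9 to 85.5 in DMSO, with overlap. Lists differ in length, so these ranks cannot show whether accessibility changed. COL13A1, a transmembrane collagen known from the neuromuscular junction, was called at its start in all 15 libraries at a median percentile of 52.9. COL17A1 and COL13A1 were 2 of the 4 transmembrane genes.

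The other transmembrane collagens, COL23A1 and COL25A1, were called at an end in 7 and 1 libraries. COL25A1, known from neurons, had 6 regions and an end called only in DMSO 24 h replicate 3. COL23A1 had 80 regions, the most of any collagen gene, against a median of 22 and a minimum of 2. Its start was called in 2 of 7 libraries with Lgk974 and 1 of 8 with DMSO.

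Fibrillar collagen genes were uneven. COL1A1, a chain of the main fibrillar collagen of connective tissue, was called at its high-coordinate end in all 15 libraries, at a median percentile of 78.2. COL1A2, the partner chain, was called in 5 of 7 libraries with Lgk974 and 6 of 8 with DMSO, and COL3A1, the main collagen of reticular fibres, in 0 of 7 and 0 of 8. COL5A2, whose chain limits fibril width, had an end called in all 15 libraries at a median percentile of 88.3, but an end of WDR75 lies within 2 kb of it. COL2A1, COL11A1, COL24A1 and COL27A1 were called at an end in at most 1 library, as were COL5A1 and COL5A3, although an annotated start inside COL27A1 had a call in 5 of 7 libraries with Lgk974 and 7 of 8 with DMSO. COL11A2, a cartilage collagen, was called in all 15 at its far end and in 0 at its start.

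Network collagens were rarely called at their ends. COL4A1 and COL4A2, the chains of nearly all basement membranes, share a promoter region with starts 127 bp apart, and a peak there was called in DMSO 24 h replicate 3 alone. COL4A3 and COL4A4, chains of the kidney's glomerular membrane, also start head to head, 419 bp apart, and their shared start was called in 1 of 7 libraries with Lgk974 and 4 of 8 with DMSO (exact p = 0.296). COL4A5 and COL4A6 were called in 0 of 15. The short-chain collagens COL8A1, COL8A2 and COL10A1, known from endothelium, cornea and growth plate, were called in 3, 1 and 0 libraries.

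Among the FACIT collagens, COL12A1, COL14A1 and COL22A1 were each called in 4 of 4 libraries with Lgk974 and 4 of 4 with DMSO at 24 h, and in 2 of 3 and 4 of 4 at 48 h. The end of COL9A3, a cartilage chain, was called in all 15 libraries at a median percentile of 65.6. Its percentiles ran from 29.9 to 64.9 in Lgk974 and from 77.1 to 83.2 in DMSO at 24 h, and from 23.4 to 72.4 and from 59.1 to 72.4 at 48 h, so the ranks overlapped at 48 h. COL9A2 was also called in all 15, at a median percentile of 12.2, with no peak in its 300-base start window. COL6A1 of the beaded filaments was called in 6 of 7 libraries with Lgk974 and 8 of 8 with DMSO, while COL6A3 was called in none. COL18A1, whose C-terminal fragment is endostatin, was called in 6 of 7 with Lgk974 and 7 of 8 with DMSO.

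The genes that collagen assembly needs were described by the same measure. By it 8 of 44 collagen genes and 54.3% of all protein-coding genes had a peak in every library. Of 17 genes for collagen modification and folding, such as the prolyl hydroxylase P4HA1, the lysyl hydroxylase PLOD2 and the chaperone SERPINH1, 13 were called at an end in all 15 libraries and 4 were tested. Of 15 genes for export, trimming and cross-linking 4 were called in all 15, including MIA3, which loads procollagen into vesicles, and 5 were tested. Of 10 collagen receptors 4 were called in all 15, ITGA1, ITGA2, ITGA10 and ITGB1. Of 9 genes for degradation 3 were, MMP1, MMP14 and TIMP1. A gene end is not every annotated start. The receptor DDR1 and the modification gene P3H2 were called at an end in 0 and 3 libraries, but in a start window in all 15. The reverse held for LOXL1, called at an end in 15 and in a start window in 3. Of the receptors and of the degradation genes, 1 each was tested. None of these 11 tested gene ends passed an unadjusted exact p of 0.05 in either direction, where 1.46% of all 2129 tested gene ends had more calls and 2.77% fewer calls with Lgk974.

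Constant accessibility around collagen genes lay both at these genes and at their neighbours. Of the 1016 regions 137 were called in all 15 libraries (13.5%, against 15.9% of all regions) and 388 in 1 library (38.2%, against 39.5%). Regions called in all 15 were 77 of the 264 regions nearest to another gene (29.2%) and 60 of the 752 nearest to a collagen gene (7.98%). The same split was not made around other genes, so it cannot be called particular to collagen genes. Inside collagen genes and away from their ends they were 6.80% of 559 regions. Collagen windows held 94.0 regions per Mb, against 92.1 in windows of all protein-coding genes, and 12.7 per Mb called in all 15, against 16.6.

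Most of the highest-ranked regions were at or nearest to another gene. By the median percentile of −log10 q within lists, the first was 23827 bp from COL17A1 at chr10:104109707-104110682, nearest to SFR1, with a percentile of 97.9. Others were at or nearest to ZNHIT6 near COL24A1 (96.6), ZMPSTE24 near COL9A2 (96.4) and SLC26A6 near COL7A1 (95.9). The 1 inside a collagen gene was in COL5A2 at chr2:189363472-189364175, at a median percentile of 96.5, and it was called in 7 of 7 libraries with Lgk974 and 7 of 8 with DMSO, missing from DMSO 24 h replicate 3.

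To compare treatments, each region called in 3 to 12 libraries was given the difference in the share of libraries calling it, Lgk974 minus DMSO, as the mean of both times, and a two-sided exact permutation test within time (2450 assignments, smallest possible p 0.000408). Of 290 collagen regions tested, 11 were called more often with Lgk974 at an unadjusted p under 0.05 (3.79%) and 7 less often (2.41%). Over all 60356 regions tested the shares were 2.96% and 3.08%, so the collagen counts were near the background. With 1 library left out the collagen counts were 4 to 10 and 4 to 9, and the shares over all regions tested 1.003% to 3.99% and 1.19% to 2.83%. The count with more calls was 10, 10 and 9 without Lgk974 24 h replicate 3, Lgk974 48 h replicate 3 and DMSO 24 h replicate 1, and 4 to 7 without any of the other 12. The count with fewer calls was 9, 8 and 7 without DMSO 24 h replicate 4, Lgk974 48 h replicate 1 and Lgk974 48 h replicate 2, and 4 or 5 without any of the other 12. No collagen region passed Benjamini-Hochberg adjustment over all regions tested, and the smallest adjusted p was 0.418. Differences above 0 and below 0 were as frequent, with 145 and 143 of 290, and the median was 2.08 percentage points, against −4.17 over all regions tested. In lists cut to equal lengths 15 of 154 collagen regions had more calls with Lgk974 and 13 had fewer, where the background was 7.62% and 6.83%, with a smallest adjusted p of 0.0821.

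**Figure D2:**
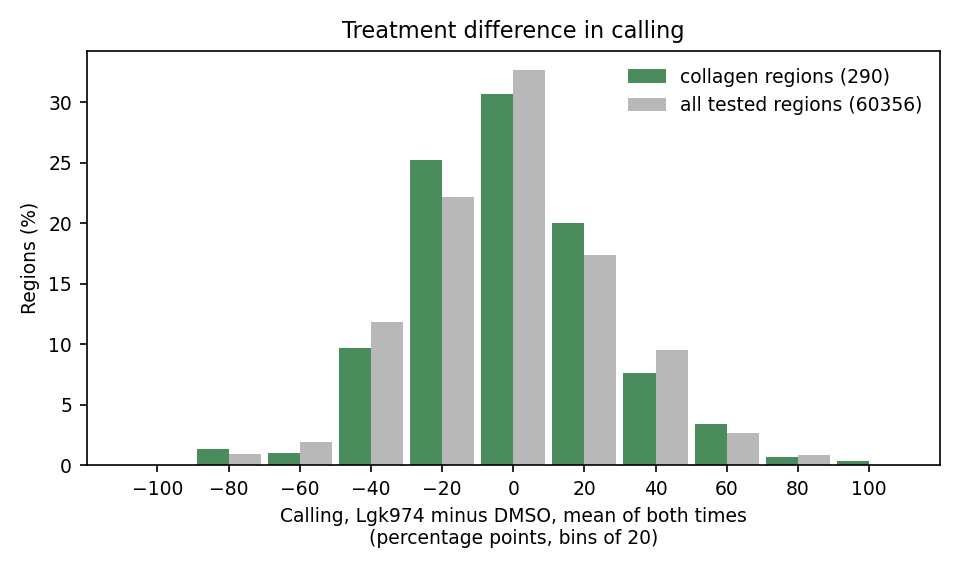
Share of regions (percent, vertical axis) by the difference in calling between Lgk974 and DMSO in percentage points (horizontal axis, bins of 20), for the 290 collagen regions tested (left bar) and all 60356 regions tested (right bar). The distributions nearly coincide, with 30.7% of collagen regions and 32.6% of all regions in the central bin.

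COL26A1, a secreted collagen with short collagenous stretches described in mouse testis and ovary, held the collagen region that differed most. The region at chr7:101518194-101518671, inside the gene and 156 kb from its start, was called in replicates 1, 2, 3 and 4 with Lgk974 and in none of 4 DMSO libraries at 24 h. At 48 h it was called in replicates 1, 2 and 3 with Lgk974 and in none of 4 DMSO libraries. The groups did not overlap at either time (exact p = 0.000408, the smallest possible; adjusted p = 0.418). Such complete separation at both times was met by 1 of 290 collagen regions and 0.0331% of all regions tested, and its reverse by 0 and 0.0315%. The peaks were weak, at percentiles of 26.7, 25.7, 16.6 and 11.4 in Lgk974 replicates 1 to 4 at 24 h and 26.8, 47.9 and 29.0 in replicates 1 to 3 at 48 h. With any 1 library left out the region stayed completely separated; in lists of equal length it was called in 2 of 7 libraries with Lgk974 and 0 of 8 with DMSO (exact p = 0.214).

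A pair of other regions in COL26A1 had no DMSO call. That at chr7:101474034-101474448 was called in 3 of 4 libraries with Lgk974 and 0 of 4 with DMSO at 24 h and in 2 of 3 and 0 of 4 at 48 h (exact p = 0.0102, adjusted p = 0.543). That at chr7:101537166-101537649 was called in 2 of 4 with Lgk974 and 0 of 4 with DMSO at 24 h, and in 2 of 3 with Lgk974 and 0 of 4 with DMSO at 48 h (exact p = 0.0306, adjusted p = 0.666). In both, the Lgk974 libraries without a call included replicate 3 of each time, the shortest lists, so the groups overlapped at 0. In lists of equal length they were called in 0 and 1 of 7 Lgk974 libraries.

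The regions around the gene went in both directions. Of 49 regions around COL26A1, 17 were tested, 8 with a difference above 0 and 9 below 0. Their median was −4.17 percentage points, as over all regions tested. With Lgk974, 3 of the 17 had more calls at an unadjusted exact p under 0.05 and 0 had fewer. The shares over all regions tested were 2.96% and 3.08%. In detection excess, described below, COL26A1 was 3.37 points higher with Lgk974 at 24 h and 4.02 at 48 h. The group SDs were 2.53 to 3.79. The far end of the gene was called in 2 of 7 libraries with Lgk974 and 6 of 8 with DMSO (exact p = 0.0959), and a region 1.62 kb after the start in all 15. In lists of equal length, a region at chr7:101442378-101442859 was called in 6 of 7 libraries with Lgk974 and 0 of 8 with DMSO (exact p = 0.00204, adjusted p = 0.0839), and one at chr7:101488716-101489453 in 0 of 7 and 6 of 8 (exact p = 0.00612, adjusted p = 0.161). With all peaks the first was called in 6 of 7 with Lgk974 and 6 of 8 with DMSO, and the second in 3 of 7 with Lgk974 and 7 of 8 with DMSO.

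**Figure D3:**
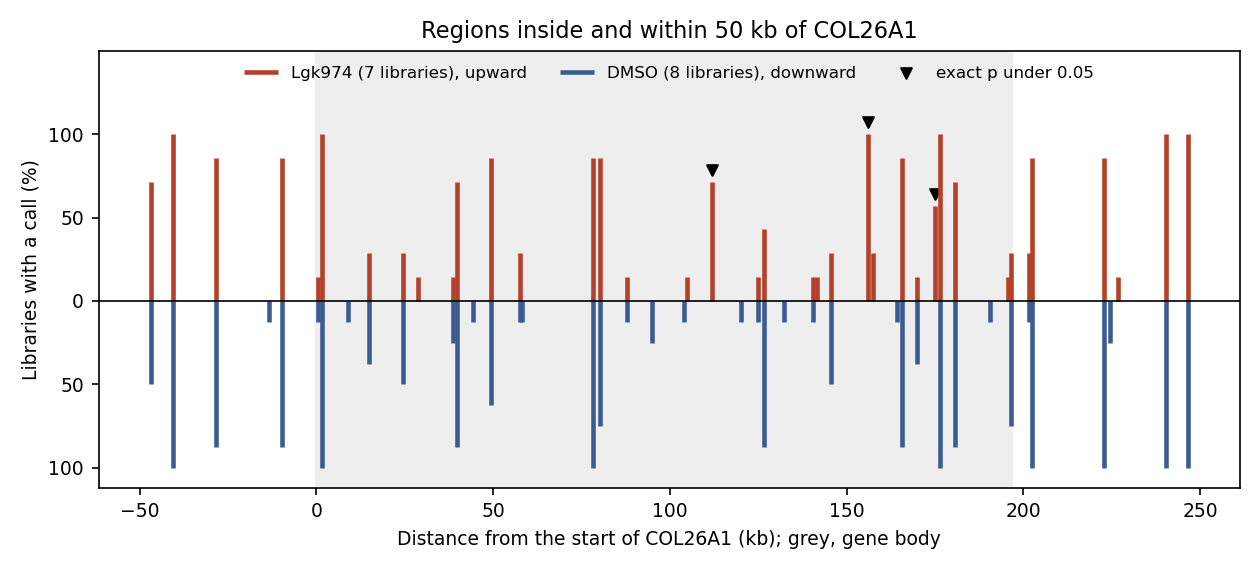
Share of Lgk974 libraries (upward, of 7) and DMSO libraries (downward, of 8) that called each of the 49 regions around COL26A1, in percent, by distance from the gene start in kb; grey marks the gene body and triangles an unadjusted exact p under 0.05. The 3 marked regions have bars upward only, as have some unmarked regions with few calls. Others have bars downward only, or bars in both directions of like or unlike length.

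COL23A1 had the other region without a DMSO call. The region at chr5:178237443-178237803 covers its far end and was called in 4 of 4 libraries with Lgk974 and 0 of 4 with DMSO at 24 h and in 2 of 3 and 0 of 4 at 48 h, missing from Lgk974 48 h replicate 3 (exact p = 0.00204, adjusted p = 0.418). The groups were separate at 24 h and touched at 48 h. Its percentiles were 32.1, 32.3, 6.15 and 0.593 in Lgk974 replicates 1 to 4 at 24 h, and 28.6 and 44.0 in replicates 1 and 2 at 48 h, and the value of replicate 4 at 24 h was among the lowest of its list. In lists of equal length it was called in 1 of 7 libraries with Lgk974 and 0 of 8 with DMSO (exact p = 1).

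Read over gene ends, COL23A1 was the 1 collagen gene of 8 tested that passed an unadjusted exact p of 0.05. Over all tested gene ends, 1.46% passed with more and 2.77% with fewer calls under Lgk974. The far-end calls are those of the region above, so this is not a separate result. The start added a call in 1 more library, with DMSO at 24 h. An end was called in 4 of 4 libraries with Lgk974 and 1 of 4 with DMSO at 24 h and in 2 of 3 and 0 of 4 at 48 h (exact p = 0.0102, adjusted p = 0.905). The other 7 tested genes were COL1A2, COL26A1, COL4A3, COL4A4, COL6A2, COL6A6 and COL8A1, and none was called less often at that p. Widening the distance to an end to 3 kb gave COL23A1 an exact p of 1. In lists of equal length the ends of COL14A1 were called in 3 of 7 libraries with Lgk974 and 8 of 8 with DMSO (exact p = 0.0306, adjusted p = 0.620) and those of COL6A1 in 1 of 7 and 6 of 8 (exact p = 0.0469, adjusted p = 0.767), where 3.41% of 1700 tested gene ends had more calls with Lgk974 and 2.71% fewer.

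Other regions called more often with Lgk974 had calls in both groups. A region 18291 bp from COL5A3, nearest to OLFM2, was called in 3 of 4 libraries with Lgk974 and 0 of 4 with DMSO at 24 h and in 3 of 3 and 2 of 4 at 48 h (exact p = 0.0306), and in lists of equal length in 4 of 7 and 0 of 8 (exact p = 0.0143). Inside COL22A1, 1 region was called in 6 of 7 libraries with Lgk974 and 2 of 8 with DMSO, and another in 5 of 7 with Lgk974 and 1 of 8 with DMSO (exact p = 0.0396 and 0.0469). Regions near COL28A1, a beaded filament relative, and near COL2A1, the cartilage fibril chain, were each called in 5 of 7 with Lgk974 and 1 of 8 with DMSO (exact p = 0.0388), and so was a region at SPATC1L near COL6A2 (exact p = 0.0469). A region near COL9A3 and MRGBP was called in 7 of 7 with Lgk974 and 4 of 8 with DMSO, being missing from all 4 DMSO libraries at 48 h (exact p = 0.0286).

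The largest negative difference among the collagen regions lay inside COL4A4 and the overlapping rhomboid protease gene RHBDD1, at chr2:226977547-226978197. It was called in 0 of 4 libraries with Lgk974 and 3 of 4 with DMSO at 24 h, missing from DMSO replicate 3, and in 0 of 3 and 4 of 4 at 48 h (exact p = 0.00204, adjusted p = 0.418). The groups were separate at 48 h and touched at 24 h because of DMSO 24 h replicate 3. The DMSO percentiles were 13.4, 45.4 and 29.9 in replicates 1, 2 and 4 at 24 h and 59.6, 47.9, 54.4 and 34.7 in replicates 1 to 4 at 48 h. In lists of equal length it was called in 0 of 7 libraries with Lgk974 and 2 of 8 with DMSO (exact p = 0.429).

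FACIT genes, which held 68 of the 290 tested regions, had 4 of the 7 regions called less often and 3 of the 11 called more often. Over all regions tested 3.08% were called less often and 2.96% more often. Whether the family differs from that background was not tested. A region inside COL14A1, whose chain binds fibril surfaces, at chr8:120267360-120267833, and a region 7417 bp from COL9A1, a cartilage chain, at chr6:70310501-70310857, were each called in 0 of 4 libraries with Lgk974 and 2 of 4 with DMSO at 24 h and in 0 of 3 and 4 of 4 at 48 h (exact p = 0.00612, adjusted p = 0.543). For both, the DMSO libraries without a call were replicates 3 and 4 at 24 h. The COL14A1 region was called in 0 of 7 libraries with Lgk974 and 4 of 8 with DMSO in lists of equal length (exact p = 0.0286), and that near COL9A1 in 0 of 7 with Lgk974 and 1 of 8 with DMSO. Of 2 regions at COL21A1, that 10286 bp from the gene was called in 3 of 7 libraries with Lgk974 and 8 of 8 with DMSO, and in 0 of 7 and 6 of 8 in lists of equal length (exact p = 0.0306 and 0.00612). That inside the gene was called in 2 of 7 with Lgk974 and 7 of 8 with DMSO (exact p = 0.0306). A further region inside COL21A1 had more calls with Lgk974 in lists of equal length. It was called in 3 of 4 with Lgk974 and 1 of 4 with DMSO at 24 h and in 3 of 3 and 0 of 4 at 48 h (exact p = 0.00857). With all peaks it was called in 3 of 4 and 4 of 4 at 24 h and in 3 of 3 and 3 of 4 at 48 h.

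The other 2 were near COL23A1 and in COL4A1. The region 35425 bp from COL23A1, nearest to HNRNPAB, was called in 1 of 7 libraries with Lgk974 and 7 of 8 with DMSO (exact p = 0.00857). That inside COL4A1, the basement membrane chain, was called in 2 of 7 with Lgk974 and 7 of 8 with DMSO (exact p = 0.0306). The next 3 by size, inside COL8A2 and COL9A3 and near COL5A3, did not pass (exact p = 0.0918).

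**Figure D4:**
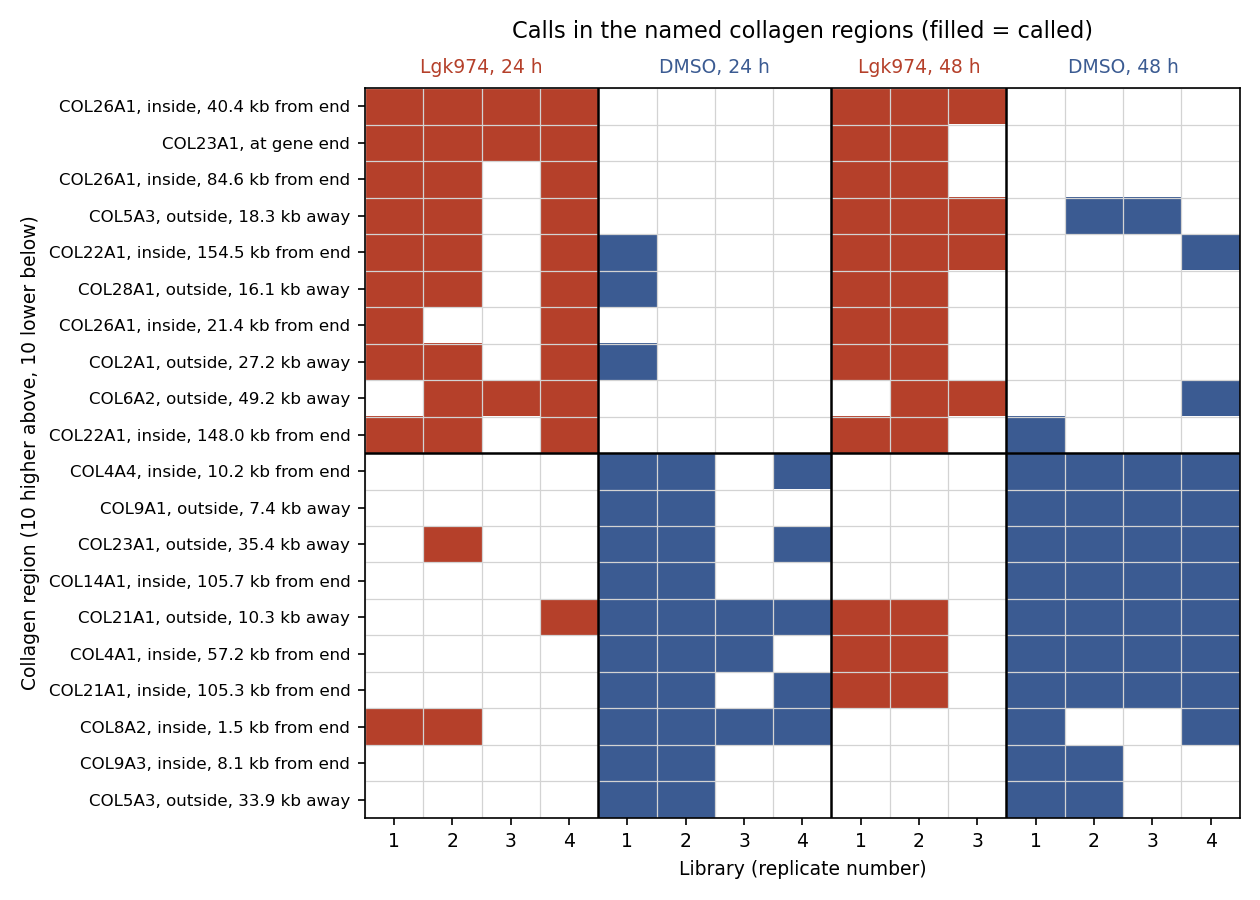
Calls in the 10 collagen regions with the largest positive (upper 10) and the 10 with the largest negative (lower 10) difference, by library, with Lgk974 (red) left of DMSO (blue) at each time; filled cells are calls. The regions were chosen for this difference; replicate 3 of Lgk974 at 24 h and 48 h lacks most calls of the upper 10 and replicate 3 of DMSO at 24 h most calls of the lower 10.

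The calls of these 20 regions varied by library. Of the 10 higher regions, Lgk974 24 h replicate 3 called 3 and Lgk974 48 h replicate 3 called 4, against 9 or 10 in the other 5 Lgk974 libraries and 0 to 3 in DMSO libraries. Of the 10 lower regions, DMSO 24 h replicate 3 called 3, against 5 to 10 in the other 7 DMSO libraries and 0 to 3 in Lgk974 libraries. The peaks were weak, with a median percentile of 23.1 in the higher and 36.3 in the lower regions. The median over all collagen peaks was 42.4 to 49.5 by library, but it includes regions called in 13 to 15 libraries. Other regions called in 3 to 12 libraries were not compared, so weakness cannot be called particular to these 20. Without the 3 libraries that stood apart, 12 of the 17 among these 20 regions with an exact p under 0.05 kept it, and in lists of equal length 3 did, near COL5A3, in COL14A1 and near COL21A1.

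Lists of equal length singled out other collagen regions. One 5803 bp from COL12A1, a FACIT of dense connective tissue, at chr6:75211856-75212422, was called in 4 of 4 libraries with Lgk974 and 0 of 4 with DMSO at 24 h and in 3 of 3 and 0 of 4 at 48 h (exact p = 0.000408, adjusted p = 0.0821). With all peaks it was called in 4 of 4 with Lgk974 and 1 of 4 with DMSO at 24 h, and in 3 of 3 with Lgk974 and 4 of 4 with DMSO at 48 h, so every library of both groups had the call at 48 h. Inside COL17A1, a region at chr10:104052325-104053162 was called in 4 of 4 libraries with Lgk974 and 0 of 4 with DMSO at 24 h and in 3 of 3 and 3 of 4 at 48 h (exact p = 0.0143), and with all peaks in all 15. A region 45242 bp from COL6A3, at MLPH, was called in 6 of 7 with Lgk974 and 0 of 8 with DMSO (exact p = 0.00204, adjusted p = 0.0839), and with all peaks in 6 of 7 with Lgk974 and 6 of 8 with DMSO. In the other direction, a region 3687 bp from COL5A3, at RDH8, was called in 0 of 7 with Lgk974 and 6 of 8 with DMSO (exact p = 0.00612, adjusted p = 0.161), and with all peaks in 4 of 7 with Lgk974 and 8 of 8 with DMSO. Regions inside COL23A1 and COL14A1 were each called in 2 of 7 with Lgk974 and 8 of 8 with DMSO (exact p = 0.0102, adjusted p = 0.166), and with all peaks in 6 of 7 with Lgk974 and 8 of 8 with DMSO. Other regions of these genes had more calls with Lgk974. One 44835 bp from COL23A1 and one inside COL14A1 were called in 3 of 4 with Lgk974 and 0 of 4 with DMSO at 24 h. At 48 h they were called in 2 of 3 and 0 of 4 (exact p = 0.0102, adjusted p = 0.166). Another, 23412 bp from COL23A1, was called in 4 of 4 and 1 of 4 at 24 h and 3 of 3 and 1 of 4 at 48 h (exact p = 0.0102). With all peaks each was also called in at least 3 of 4 DMSO libraries at both times.

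Complete separation within a time was also rare. At 24 h 2 of 290 collagen regions had a peak in all Lgk974 libraries and in none with DMSO, and 0 had the reverse, against a background of 0.118% and 0.321%. At 48 h there were 4 and 4 (1.38% each), against 0.656% and 1.08%. The 48 h counts come from 3 and 4 libraries, and leaving out Lgk974 48 h replicate 3 gave up to 17 in the Lgk974 direction. Fewer libraries make complete separation easier, and its share over all regions was not computed for that setting. In it 3.99% of all regions tested had more calls with Lgk974 at an unadjusted exact p under 0.05, against 2.96% with all libraries.

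Between times, 6 of 290 collagen regions were called more often at 48 h than at 24 h (2.07%) and 4 less often (1.38%), with labels permuted within treatment; over all regions tested the shares were 1.25% and 0.504%. No collagen region passed Benjamini-Hochberg adjustment of the exact p (smallest adjusted p = 1). The largest positive difference was 17898 bp from COL11A2, where 2 of 3 libraries with Lgk974 and 4 of 4 with DMSO at 48 h had a call, against 0 of 4 and 1 of 4 at 24 h (exact p = 0.0102). The opposite was seen inside COL22A1, where 0 of 3 with Lgk974 and 0 of 4 with DMSO at 48 h stood against 3 of 4 with Lgk974 and 3 of 4 with DMSO at 24 h (exact p = 0.0102). These counts were 1 to 7 and 2 to 4 with any 1 library left out.

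Lists of unequal length shift all calls, so each library's calling of collagen regions was set against its calling of other regions found in as many libraries. This detection excess was 0.172, 0.457, 0.474 and 0.746 percentage points in Lgk974 replicates 1 to 4 and −0.694, 0.773, 0.867 and 0.357 in DMSO replicates 1 to 4 at 24 h. At 48 h it was −1.65, 0.338 and 1.66 in Lgk974 replicates 1 to 3 and 0.928, −2.19, −1.80 and −0.440 in DMSO replicates 1 to 4. The groups overlapped at both times. The means were 0.462 ± 0.235 in Lgk974 and 0.326 ± 0.715 in DMSO at 24 h (SD, n = 4 each), and 0.117 ± 1.66 (n = 3) and −0.876 ± 1.42 (n = 4) at 48 h. The difference, 0.565 points as the mean of both times, was smaller than the SD of 3 of the 4 groups.

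**Figure D5:**
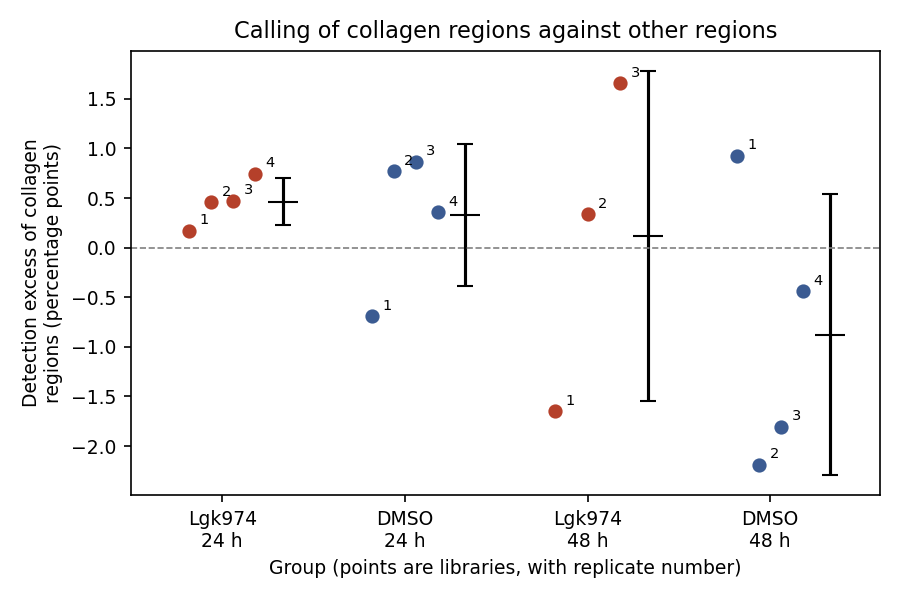
Detection excess of the 1016 collagen regions in percentage points (vertical axis) for each library, by group, with Lgk974 (red) left of DMSO (blue) at each time; numbers are replicates, and black bars the mean ± SD. Lgk974 and DMSO libraries overlap at 24 h and at 48 h.

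By place, the excess at gene ends was 0.622 ± 4.44 in Lgk974 and 0.702 ± 4.28 in DMSO at 24 h, and 2.49 ± 5.74 and −3.19 ± 0.981 at 48 h. At 48 h Lgk974 replicates 2 and 3 were at 4.08 and 7.26, replicate 1 at −3.89, and DMSO libraries between −4.58 and −2.28, so the groups overlapped. Inside and outside the genes the differences over both times were 0.477 and 0.416 points.

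By family, the beaded filament collagens COL6A1, COL6A2, COL6A3, COL6A5, COL6A6 and COL28A1 had the largest positive difference among families of more than 1 gene. Their excess was 1.23 ± 1.82 in Lgk974 and −2.59 ± 3.48 in DMSO at 24 h, and 2.13 ± 4.63 and −0.233 ± 3.52 at 48 h, a difference of 3.09 points over both times, below the SD of 3 of the 4 groups. The order of families depended on the processing: with lists of equal length the beaded filament family was at 0.999 and the multiplexins at 12.5, and the multiplexins were also ahead with −log10 q of at least 5 (4.05 against 0.852), with a cover of 50% (5.16 against 1.67) and within 10 kb (4.06 against 2.42). The short-chain collagens had the largest negative one, −2.88 points, with SDs of 2.60 to 5.64; with lists of equal length it was −2.44, and the basement membrane network was lower at −4.52. For the fibrillar family it was −0.580 points, for the basement membrane network −0.507, for FACIT 0.734, for the multiplexins COL15A1 and COL18A1 2.76, and for the transmembrane collagens −0.880.

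Among 37 collagen genes with 10 or more regions the difference was above 0 in 22 and below 0 in 15. The same count was not made over other genes, so it cannot be called particular to collagen genes. The largest differences were in COL6A2 (7.49 points), COL6A1 (6.57), COL10A1 (5.997), COL26A1 (3.70) and COL18A1 (3.68). The lowest were in COL9A1 (−7.62), COL8A2 (−6.12), COL8A1 (−5.89), COL11A2 (−5.68) and COL19A1 (−4.11). With lists of equal length COL18A1 was at 12.5 and COL10A1 at 2.52, COL8A1 at −11.5, COL8A2 at −0.0674 and COL11A2 at 0.339, the opposite direction, while COL19A1 gave no value. COL11A2 was at −0.518 and COL10A1 at 14.99 within 10 kb. COL10A1 was at 1.13 without DMSO 24 h replicate 3 and COL18A1 at 0.584 without Lgk974 48 h replicate 3; over all single libraries left out, COL9A1 ran from −12.7 to −5.96, COL8A1 from −9.17 to −2.33 and COL19A1 from −8.46 to −1.44, and COL6A2 from 4.91 to 12.9 and COL6A1 from 3.59 to 9.83. COL6A2 had 3.86 ± 5.21 in Lgk974 and −6.13 ± 4.91 in DMSO at 24 h, and 4.15 ± 18.1 and −0.841 ± 10.5 at 48 h. COL9A1 had −1.53 ± 4.07 in Lgk974 and 2.08 ± 7.05 in DMSO at 24 h, and −6.97 ± 3.06 in Lgk974 and 4.67 ± 7.68 in DMSO at 48 h (SD, n = 3 in Lgk974 at 48 h and 4 in the other groups, here and for the places and families above). COL6A1 and COL6A2 are neighbours on chromosome 21 and share regions, and 41 collagen regions belonged to more than 1 collagen gene.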

How the data were processed

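ATAC-seq peaks of 15 HPAF-II libraries were used, with 1 deposited narrowPeak list each, so the authors' peaks are per library and not pooled. The submitters' processing notes name the build hg38, the peak caller MACS2, the read tools Bowtie2, Trimmomatic, SAMtools, Picard and bedtools, and DESeq2, DiffBind, ChIPseeker and HOMER; which versions and settings were used, and in which order, is not given in the sources used here. The score, the fold over background and the −log10 p and −log10 q of a peak are the authors' values as deposited, and served only to rank, filter or describe peaks within a list. Of 1413185 peaks, 1138 outside chromosomes 1 to 22 and X were dropped, and 1 damaged line was read as chromosome 1.

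Peaks were merged into regions, and a library called a region if 1 of its peaks overlapped it. Gene positions and start windows came from RefSeq tables of GRCh38.p14; the strand of 12 collagen genes without a start window was not used. Regions, or gene ends within 1 kb, called in 3 to 12 libraries were compared by a two-sided exact permutation of labels within time, with Benjamini-Hochberg adjustment over all that were tested; 48 h against 24 h was permuted within treatment. Detection excess is the share of collagen regions a library called, minus its share of other regions found in as many libraries, and had no test. Lists of equal length held the 53583 peaks of highest −log10 p. The text names the 10 regions with the largest difference in each direction, the 5 with the highest median percentile, the genes called in 15 libraries or tested, and the 5 genes in each direction with the largest excess difference; the regions given from lists of equal length, from the time comparison and the COL9A3 and MRGBP region were chosen after their values were seen. The members, gene lists and tests were chosen with earlier results of these data known. The test was tried on simulated data. Alternatives changed the list length, the q threshold, the cover a call needs, the region definition, the distances, the range of libraries tested, the reference of the excess and the libraries, and took replicate numbers as a block. Python 3.11.15, numpy 2.4.6, pandas 2.3.3 and matplotlib 3.10.9 were used.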

Additional observations from a re-analysis of the deposited data

Results flagged for a closer look

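In 24 groups of values examined, 3 held a library far from the others of its group by Dixon's criterion, which chance gives in about 1 in 20 groups. The list of Lgk974 24 h replicate 3 held 53610 peaks, the fewest of all 15. The same library called 221 collagen regions, against 414 to 436 in the other 3 Lgk974 libraries at 24 h. In DMSO 24 h replicate 2, collagen regions made up 0.464% of the regions called, above the other 3 DMSO libraries at 24 h.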

How the results depend on the processing

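No collagen region passed adjustment under any alternative run. Shares over all regions given here are those with more and with fewer calls with Lgk974 at an unadjusted exact p under 0.05. Such shares were not computed under any alternative for complete separation or between times. With lists of equal length 154 collagen regions were tested, and the shares over all regions were 7.62% and 6.83%. Of the 154, 13 had fewer calls with Lgk974 and 4 were separated completely towards Lgk974 at 24 h. Between times, 1 had fewer calls at 48 h than at 24 h. The excess difference at 48 h was 2.26 points. Gene ends gave 0 with more and 2 with fewer calls, where the shares over all gene ends were 3.41% and 2.71%. With −log10 q of at least 5, 271 were tested, and the shares over all regions were 3.19% and 3.02%. Of the 271, 1 was separated towards Lgk974 at 24 h and 1 had more calls at 48 h, and 0 gene ends had more calls with Lgk974. With a cover of 50%, 342 were tested, and the shares over all regions were 2.974% and 2.985%. Of the 342, 1 was separated towards Lgk974 at 24 h and 0 at both times, and 3 had more and 0 fewer calls at 48 h. Within 10 kb of a gene 209 were tested, and the shares over all regions were 2.96% and 3.08%. Of the 209, 6 had more calls with Lgk974, 2 were separated towards it at 48 h, and the time counts were 3 and 1. With gene ends of 3 kb, 0 had more calls. With the replicate block, 279 were tested, and the shares over all regions were 0.240% and 0.342%. The smallest possible p of this test was 0.0156, against 0.000408 without the block. Of the 279, 2 had more and 1 had fewer calls, and 0 gene ends had more. Correlations of same-numbered libraries ran from −0.0321 to 0.146, over 0.1 in 5 of 7 pairs, against 2 of 21 pairs with different numbers, and 8 of 14 libraries correlated best with their own number. This is a hint of pairing from the data; since not every pair was over 0.1 and the labels state no shared batch, the numbers were not taken as pairs. Without the 3 libraries that stood apart, 199 were tested, and of all regions 6.50% had more and 1.49% fewer calls. Of the 199, 4 had fewer calls with Lgk974, 5 and 3 were separated at 24 h and 16 towards Lgk974 at 48 h. At both times 3 and 1 were separated, and the time counts were 2 and 2. Fewer libraries make complete separation easier. In an alternative chosen after seeing the data, only regions nearest to a collagen gene were kept. Of 231 tested, 7 had more calls with Lgk974 and 2 fewer at 48 h, with the same shares over all regions as within 10 kb. The cause of these shifts was not tested. Leaving out 1 library gave 4 to 10 regions with more and 4 to 9 with fewer calls, 2 to 5 and 0 to 6 separated at 24 h, 4 to 17 and 4 to 6 at 48 h, 1 to 2 and 0 to 1 at both times, 1 to 7 and 2 to 4 between times, and an excess difference of 0.185 to 1.05 points over both times, −0.239 to 0.458 at 24 h and 0.315 to 1.95 at 48 h. Depth is unknown. The median percentiles of the peaks in the named regions were 23.1 and 36.3, with medians of single regions of up to 55.7.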
